A study of Equus caballus with 2 samples.

Results

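The genes described here build focal adhesions and the non-muscle actomyosin cytoskeleton: *TLN1*, *VCL*, *PXN*, *ZYX*, *ACTN1*, *ACTN4*, *FLNA*, *MYH9*, *MYH10* and *TPM4*. They were chosen by name, and all 10 were found, each at 1 row, among the 21426 genes listed for both libraries. Focal adhesions are the sites where integrins couple the extracellular matrix to actin filaments. Talin binds the integrin tail and the filament, vinculin strengthens that link, paxillin and zyxin are recruited as adapters, crosslinkers bundle the filaments, and non-muscle myosin II pulls on them. In fibroblasts, larger adhesions and contractile actin bundles are a known part of the change to a myofibroblast, the cell that TGF-β1 promotes in fibrosis of the equine endometrium.

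Equine endometrial fibroblasts were sequenced as single cells to follow their transcriptional response to TGF-β1. Cells of 4 mares were cultured on collagen-coated hydrogels, kept in serum-free medium with albumin during treatment, detached with trypsin and pooled for each treatment before loading. The control library received no supplement over the 24 h, and the TGF-β1 library was given human recombinant TGF-β1 at 10 ng/ml for 24 h. Cells treated with MFGE8 were not analysed here. Each treatment was 1 droplet library. The study separated the cells by mare from genotypes in the reads, an assignment that was not in the files read here, and no test between the libraries was made. Treatment, library preparation and the mix of mares cannot be told apart in the values given.

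The values are counts of unique molecular identifiers (UMIs), which mark single captured transcripts. A cell was kept if it had 20000 UMIs and 3500 genes or more and if mitochondrial genes took less than 4% of its UMIs. These were 3865 of 4384 control barcodes (88.2%) and 4513 of 5124 TGF-β1 barcodes (88.1%). The kept control cells held 210497250 UMIs and the kept TGF-β1 cells 219731144. The median depth was 50313 UMIs per control cell and 43142 per TGF-β1 cell, and mitochondrial genes took 1.52% and 1.27% of the UMIs. The libraries shared 6 barcodes, 2 of them among the kept cells.

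The fibroblast label was checked against marker lists. All 9 fibroblast markers were above 10 counts per 1000000 UMIs (CPM), with a summed level of 21714 CPM in the control and 21795 CPM in the TGF-β1 library, and *COL1A1* was the most abundant with 5608 and 6376 CPM. Within the list the genes moved in both directions, with a median log2 ratio of -0.23 and 4 of the 9 more than 1.5-fold lower after TGF-β1 (6.48% of all genes past 10 CPM): *VIM* (4399 and 2240 CPM), *THY1* (216 and 87.5 CPM), *PDGFRB* (80.1 and 49.0 CPM) and *PDGFRA* (50.5 and 16.7 CPM). Defining markers of other cells were near 0 in both libraries: *EPCAM* had 0.00475 CPM in the control and 0.0137 CPM in the TGF-β1 library, *PECAM1* 0.0428 and 0.0364 CPM, and *PTPRC* 0.00475 and 0 CPM. The epithelial list nevertheless differed between the libraries, with 134 CPM summed over its 6 genes found in the control and 12.3 CPM in the TGF-β1 library. Most of it in the control was the keratin gene *KRT8*, with 114 and 4.48 CPM. In the TGF-β1 library the keratin gene *KRT7* was the higher, with 19.3 CPM in the control and 7.04 CPM there. The endothelial list held 13.4 and 24.2 CPM, led by the transcription factor gene *ERG* with 11.9 and 22.6 CPM, and the immune list 52.6 and 55.0 CPM, led by *CD68* with 42.6 and 43.1 CPM. Genes of pericytes and smooth muscle held 818 CPM in the control and 738 CPM in the TGF-β1 library, led by *DES* with 646 and 569 CPM, while *KCNJ8* had no UMI in either. Whether these differences took part in the values below was not tested.

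Summed over all kept cells, the adhesion and actomyosin genes differed little in level between the libraries, and differed more in the cells of lower depth. UMIs of all kept cells were summed per library and expressed as CPM, and each log2 ratio sets the TGF-β1 value against the control value. Together the 10 genes had 3129 CPM in the control and 3475 CPM with TGF-β1, for a log2 ratio of 0.15 (95% counting interval 0.15 to 0.16) or 1.11-fold. In cells of fewer than 35000 UMIs this ratio was 0.44, with 3 of the 10 genes more than 1.5-fold higher (8.48% of all genes). In cells of 35000 to 60000 UMIs it was 0.27, with 2 (8.06%). The intervals of ratios are exact binomial and cover counting error only. Of the 10 genes, 7 had a log2 ratio above 0, against 51.4% of the 7658 genes whose mean reached 10 CPM. Over all kept cells none was more than 1.5-fold higher after TGF-β1 (background 6.19%) and 1, *PXN*, was more than 1.5-fold lower (background 6.48%). At 2-fold there was no gene in either direction, against a background of 2.3% higher and 2.13% lower. The median log2 ratio was 0.11 for the 10 genes and 0.0082 for all 7658, whose 10th and 90th percentiles were -0.45 and 0.45. The genes of α-actinin, *ACTN1* and *ACTN4*, lay just above that range and *PXN* below it, while the other 7 lay within it.

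*TLN1*, which encodes talin, had 367 CPM in the control and 397 CPM with TGF-β1, for a log2 ratio of 0.11 (0.10 to 0.13). *VCL*, encoding vinculin, had 301 and 297 CPM, a log2 ratio of -0.02 (-0.04 to -0.0045). Over all kept cells, these core genes of the adhesion thus differed by 1.08-fold or less. *ZYX*, whose product zyxin collects at actin bundles under tension, had 134 CPM in the control and 144 CPM with TGF-β1, for a log2 ratio of 0.10 (0.08 to 0.13). *PXN*, encoding the adapter paxillin, stood apart with 16.9 CPM in the control and 10.9 CPM in the TGF-β1 library. Its log2 ratio was -0.64 (-0.71 to -0.56), or 0.643-fold, and rests on 3567 and 2393 UMIs, the fewest of the 10 genes. How many UMIs a gene yields in a library of transcript ends depends on how its ends are annotated, so levels, and the shares of paralogs below, are compared between the libraries and not between genes.

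The α-actinin genes, whose products crosslink actin filaments and bind vinculin, had the highest ratios of the 10. *ACTN1* had 317 CPM in the control and 436 CPM with TGF-β1, for a log2 ratio of 0.46 (0.45 to 0.47) or 1.38-fold. *ACTN4* had 199 and 279 CPM, a log2 ratio of 0.48 (0.47 to 0.50) or 1.40-fold. Because both genes were higher to a like degree, *ACTN1* gave 61.4% of the α-actinin UMIs in the control and 61.0% in the TGF-β1 library. *FLNA*, encoding filamin A, which joins filaments into networks and binds integrin tails, went the other way, with 382 CPM in the control and 354 CPM in the TGF-β1 library and a log2 ratio of -0.11 (-0.13 to -0.10).

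*MYH9* and *MYH10* encode the heavy chains of non-muscle myosin IIA and IIB, the motors of the actin bundles. *MYH9* had 330.0 CPM in the control and 330.2 CPM in the TGF-β1 library, and the interval of its log2 ratio, -0.01 to 0.02, spans 0. *MYH10* had 277 and 326 CPM, a log2 ratio of 0.23 (0.22 to 0.25) or 1.17-fold. The share of *MYH9* among the UMIs of both motors was therefore 54.3% (exact binomial interval 54.1% to 54.6%) in the control and 50.3% (50.1% to 50.6%) in the TGF-β1 library. *TPM4*, encoding a tropomyosin that lies along the filaments myosin II moves on, had 804 CPM in the control and 901 CPM with TGF-β1, for a log2 ratio of 0.16 (0.16 to 0.17). Paralogs of striated muscle were close to absent: of 6 such genes 5 were found, none reached 10 CPM, and they summed to 1.5 CPM in the control and 1.18 CPM in the TGF-β1 library.

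**Figure D1:**
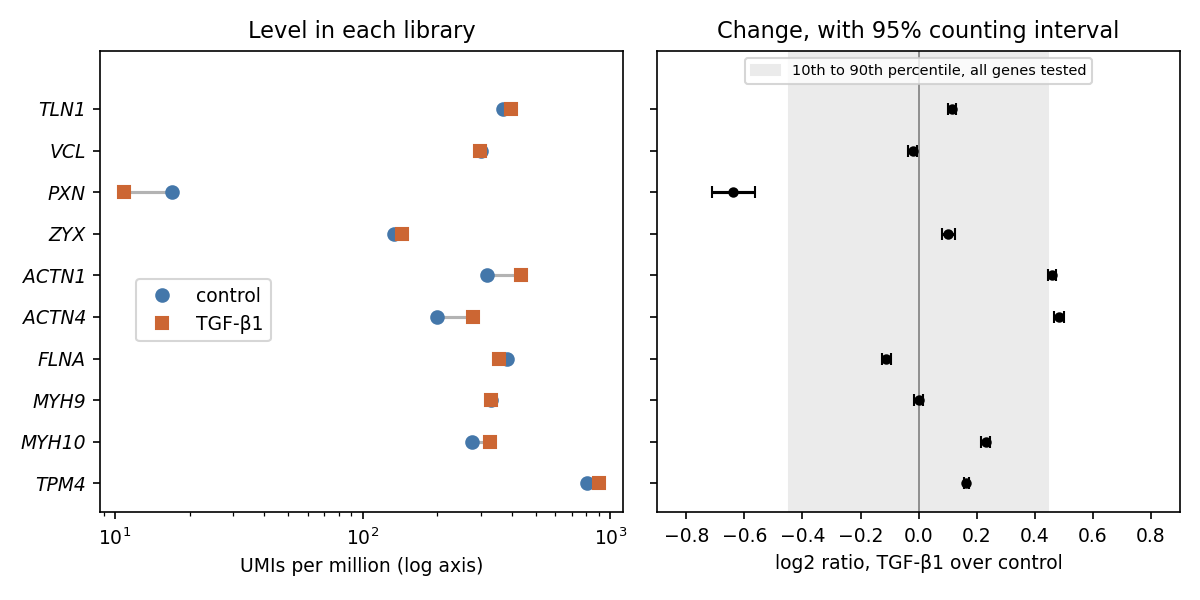
Left, CPM of each gene in the control library (circles) and the TGF-β1 library (squares), on a log axis. Right, the log2 ratio between the libraries (TGF-β1 to control) with its 95% counting interval, over a grey band from the 10th to the 90th percentile of the 7658 genes tested. *ACTN1* and *ACTN4* lie just above the band and *PXN* lies below it.

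Summed levels give most weight to deep cells, and the libraries differed in depth. Kept cells were therefore divided by their UMIs, at limits chosen after the data were seen. In cells of fewer than 35000 UMIs, the 10 genes summed to 2242 CPM over 408 control cells and to 3049 CPM over 1004 TGF-β1 cells, a log2 ratio of 0.44 (0.42 to 0.46). In cells of 35000 to 60000 UMIs they summed to 2924 CPM over 2436 control cells and to 3528 CPM over 2656 TGF-β1 cells, a log2 ratio of 0.27 (0.26 to 0.28). In cells above 60000 UMIs, the level was 3556 CPM over 1021 control cells and 3569 CPM over 853 TGF-β1 cells, a log2 ratio of 0.01 (-0.0027 to 0.01). The level of the control cells was thus higher the deeper the cells were, while in TGF-β1 cells the upper 2 depth classes were nearly level. The median log2 ratio of all genes past 10 CPM was -0.0097 in the shallow, 0.04 in the middle and -0.01 in the deep cells.

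The ratios of 7 members, all but *VCL*, *ZYX* and *PXN*, also fell in that order from shallow to deep cells. *ACTN1* was 1.90-fold higher after TGF-β1 in the shallow cells, 1.51-fold in the middle and 1.26-fold in the deep cells, and *ACTN4* 1.57-fold, 1.51-fold and 1.31-fold. The α-actinin genes were therefore higher at every depth, and passed 1.5-fold in all but the deepest cells. For *TPM4*, a log2 ratio of 0.64 in the shallow cells stood against -0.15 in the deep cells, and for *MYH9* 0.25 stood against -0.13. The sign of both thus depended on depth, as did that of *FLNA*, with 0.16 in the shallow and -0.17 in the deep cells, and of *TLN1*, with 0.37 and -0.03. *VCL* had -0.08 in the shallow, 0.10 in the middle and -0.10 in the deep cells. *PXN* was lower after TGF-β1 at all 3 depths, at 0.631-fold, 0.626-fold and 0.692-fold, while *MYH10* and *ZYX* were higher at all 3. Past 1.5-fold higher were 3 of the 10 genes in the shallow cells (8.48% of all genes), 2 in the middle (8.06%) and 0 in the deep cells (5.24%). What lies behind the depth of a cell was not tested.

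For a comparison of single cells, 20000 UMIs were drawn at random from every kept cell, so that all had the same depth and none was left out. A thinned control cell held a median of 57 UMIs of the 10 genes, with 31 at the 10th and 91 at the 90th percentile and a range of 8 to 194. A thinned TGF-β1 cell held a median of 66, with 43 and 95 at the same percentiles and a range of 12 to 167. The libraries thus overlapped over nearly their whole range. They differed more at the low end and in the middle than at the high end. Above the control median lay 49.8% of control cells and 68.4% of TGF-β1 cells. Of the control cells, 9.24% lay below 31 UMIs, and of the TGF-β1 cells 1.48% (exact binomial interval 1.15% to 1.88%, counting error only). At the high end, 9.78% of control cells and 12.7% of TGF-β1 cells lay above 91 UMIs. Among cells of 35000 to 60000 UMIs, the shares below the control 10th percentile were 8.99% and 0.866%.

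**Figure D2:**
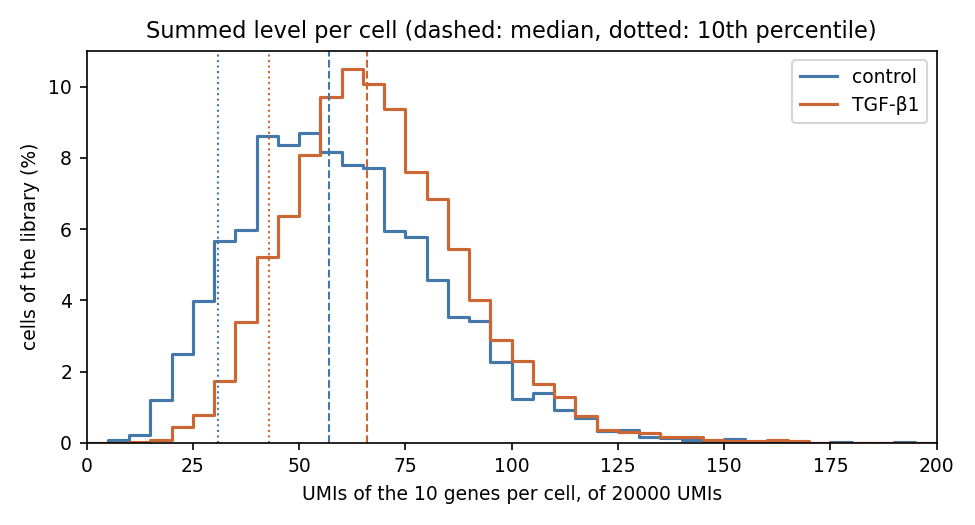
Distribution over cells of the summed UMIs of the 10 genes after thinning to 20000 UMIs, as percent of the 3865 control cells and the 4513 TGF-β1 cells in bins of 5 UMIs. Dashed lines mark the medians of 57 and 66 UMIs and dotted lines the 10th percentiles of 31 and 43 UMIs. The low end moves further than the high end.

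The TGF-β1 cells were also more alike. The spread between cells beyond counting noise, as percent of the mean, was 36.9% of the summed level in the control and 27.9% in the TGF-β1 library. Of the 10 genes, 9 had at least 1 UMI per thinned cell in both libraries, and in 9 of these 9 this spread was lower after TGF-β1, which was so for 68.3% of all 2771 genes at that level. Their median spread was 48.7% in the control and 36.8% in the TGF-β1 library, beside 33.0% and 30.2% over the 2771 genes. Among them *VCL* had 61.5% in the control and 41.5% in the TGF-β1 library, *ACTN1* 53.9% and 41.0%, and *FLNA* 48.7% and 36.0%. The motors differed less, with 50.8% and 47.4% for *MYH9* and 74.1% and 66.8% for *MYH10*, which thus varied most between cells in both libraries. *PXN* had a mean of 0.337 and 0.211 UMIs per thinned cell, too few to read its spread.

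Across cells of a library, the genes varied together. Pearson's r was computed for each of the 45 pairs on the log2(UMIs + 1) scale of the thinned counts, over 3865 control and 4513 TGF-β1 cells. Cells of a library share its preparation and come from the same unlabelled mares, so r describes that library, and no p-value is given. The mean of the 45 pairs was 0.24 in the control (range -0.02 to 0.43) and 0.18 in the TGF-β1 library (range -0.02 to 0.35). The mean over all 3837835 pairs of the 2771 genes was 0.0034 in the control and 0.0029 in the TGF-β1 library. Positive values were found in 43 of the 45 pairs in each library. The 9 pairs with *PXN* lay between -0.02 and 0.06 in both libraries. Because of its low count these values were read neither as a relation nor as the lack of one. Without *PXN* the mean of the other 36 pairs was 0.30 in the control and 0.22 in the TGF-β1 library.

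The joint variation was weaker on average in the TGF-β1 library. Of the 45 pairs, 37 had a lower r there, and of the 36 without *PXN* 34, against 50.7% of all pairs. Among pairs with r above 0.2 in the control, which were 30 of the 45 and 1.01% of all pairs, 29 had a lower r after TGF-β1, against 57.1% of all such pairs. All such pairs averaged 0.26 in the control and 0.25 in the TGF-β1 library. The largest differences involved tropomyosin: r of *ACTN1* with *TPM4* was 0.41 in the control and 0.15 in the TGF-β1 library, and r of *FLNA* with *TPM4* 0.41 and 0.16. Next came *TLN1* with *TPM4*, with r of 0.39 in the control and 0.22 in the TGF-β1 library. Talin was also less tied to the crosslinkers, with 0.33 and 0.17 for *FLNA* with *TLN1* and 0.31 and 0.15 for *ACTN1* with *TLN1*. Other pairs differed less. *MYH9* and *MYH10* had r of 0.39 in the control and 0.35 in the TGF-β1 library, the highest pair there, and *MYH10* with *ACTN1* 0.32 and 0.34. The highest pair of the control was *MYH9* with *FLNA*, at 0.43, with 0.31 in the TGF-β1 library.

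With the counting noise taken off the variances, the mean of the 36 pairs without *PXN* was 0.51 in the control and 0.43 in the TGF-β1 library. Of these 36, all above 0.2 in the control, 26 were lower after TGF-β1 and 10 higher. The 10 were 7 of the 8 pairs with *VCL*, such as *MYH10* with *VCL* (0.34 in the control and 0.48 in the TGF-β1 library) and *VCL* with *TLN1* (0.39 and 0.50), and the pairs of *MYH10* with *MYH9* (0.58 and 0.60), *ACTN1* (0.47 and 0.53) and *ZYX* (0.27 and 0.40). The direction of most *VCL* pairs, and of *MYH9* with *MYH10*, thus depended on whether counting noise was taken off. Over the pairs of all 2184 genes with a spread of at least 20% in both libraries, 50.5% were lower, and of those above 0.2 in the control 53.6%. The summed level of the 10 genes followed the UMIs of the unthinned cell with r of 0.36 in the control and 0.20 in the TGF-β1 library. For *TPM4* this relation changed sign, from 0.21 to -0.13. The part of depth in the pairwise values was not tested beyond the thinning and the middle depth class, in which the means were 0.22 and 0.16.

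**Figure D3:**
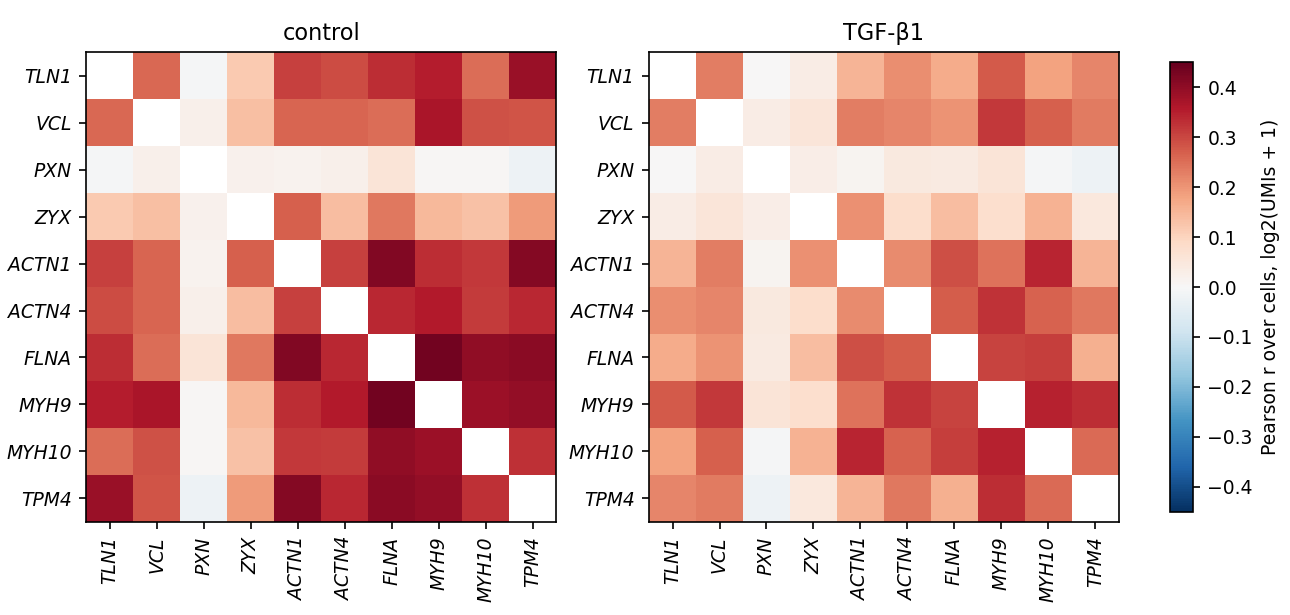
Pearson's r over cells for each pair of the 10 genes, on log2(UMIs + 1) of counts thinned to 20000 UMIs per cell, in 3865 control cells (left) and 4513 TGF-β1 cells (right). Pairs of *TPM4* and *TLN1* with the crosslinkers are paler after TGF-β1, *MYH9* with *MYH10* is close to its control value, and *PXN* is near 0 throughout.

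Kept cells of both libraries were clustered again into 8 rebuilt clusters. *MYH9*, *MYH10*, *ACTN1*, *FLNA* and *VCL* were among the genes used to cluster, so levels between clusters are a description only. In each of the 8 the TGF-β1 cells had the higher summed level, with log2 ratios from 0.02 in cluster 2 (3391 CPM in the control, 3446 CPM in the TGF-β1 library) to 0.63 in cluster 7 (1826 and 2816 CPM, from 110 and 59 cells). Cluster 1 had the highest level in both libraries, with 3869 CPM in the control and 3996 CPM in the TGF-β1 library, and a log2 ratio of 0.05. Clusters 5 and 7 had the lowest levels in the control, and cluster 5, with 2031 and 2297 CPM, was the lowest after TGF-β1. The cells below 31 thinned UMIs were most frequent in the same clusters: 46.4% of control cells in cluster 7 and 38.5% in cluster 5, and 13.6% and 10.5% of their TGF-β1 cells. Without both clusters the low end still differed, with 9.70% of control and 1.69% of TGF-β1 cells below the 10th percentile of the remaining control cells.

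By gene, *ACTN1*, *ACTN4* and *TPM4* were higher after TGF-β1 in all 8 clusters, with counting intervals above 0. *TLN1* had log2 ratios above 0 in all 8, with intervals spanning 0 in 3 of them (clusters 1, 2 and 5), and *PXN* had ratios below 0 in all 8, with an interval spanning 0 in cluster 7. *ACTN1* ranged in log2 ratio from 0.32 in cluster 1 to 1.39 in cluster 7, where it had 152 CPM in the control and 400 CPM in the TGF-β1 library. *MYH10* was higher in 7 clusters, most so in cluster 3 with 224 and 322 CPM, and lower in cluster 2. *MYH9*, *FLNA* and *VCL* had ratios above 0 in 4 clusters and below 0 in 4, with intervals spanning 0 in 2 clusters for *MYH9* and in 5 each for *FLNA* and *VCL*. For *FLNA* the log2 ratios ranged from -0.40 in cluster 1, with 556 CPM in the control and 423 CPM in the TGF-β1 library, to 0.73 in cluster 7, with 185 and 308 CPM. The highest cluster exceeded the lowest 3.00-fold for *FLNA* in the control and 1.75-fold in the TGF-β1 library, and 2.61-fold and 1.5-fold for *ACTN1*. For both genes the lowest control cluster was cluster 7, of 110 control cells. In the next lowest, cluster 5, *ACTN1* had 243 CPM in the control, beside 396 CPM in the highest, cluster 1. The fold between clusters was also lower after TGF-β1 for *MYH9*, *MYH10*, *ACTN4*, *ZYX* and *TPM4*, and higher for *TLN1* and *PXN*. For *VCL* the fold between clusters was 2.72 in both libraries. Cells with at least 3 cycling markers were 2.15% of control and 1.79% of TGF-β1 cells. They had summed levels of 3314 and 3495 CPM, beside 3124 and 3474 CPM in the other cells. They were also deeper, with a median of 73542 UMIs in the control and 58119 in the TGF-β1 library. The other cells had medians of 50124 and 43013.5 UMIs. The part of depth in these levels was not tested.

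**Figure D4:**
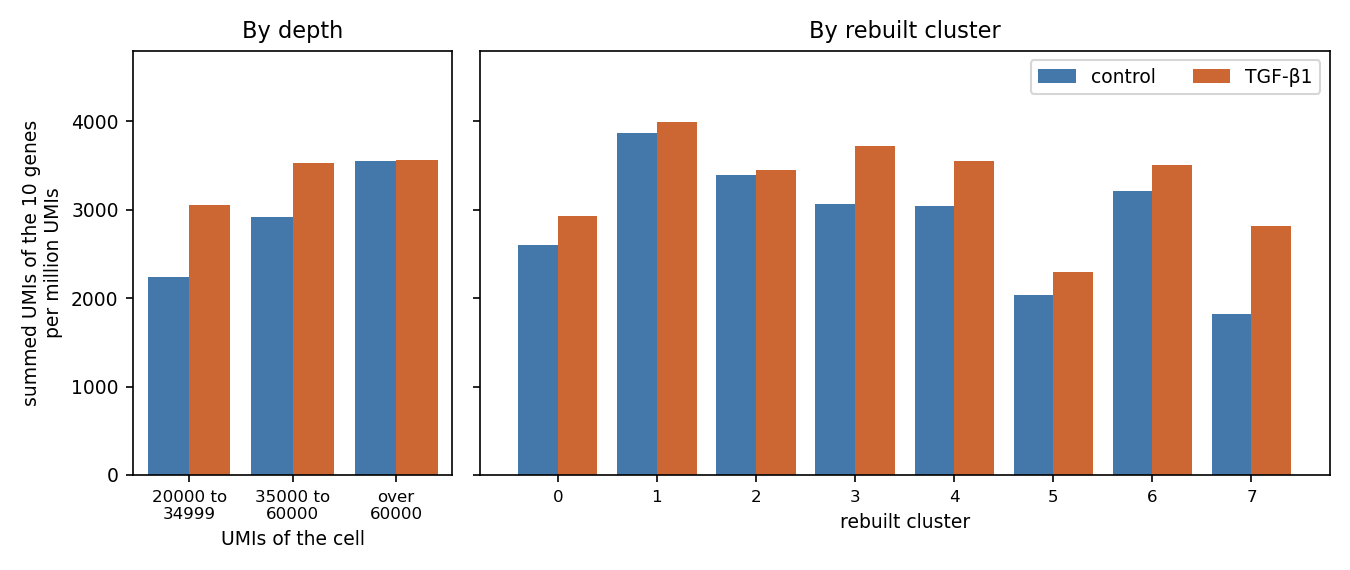
Summed CPM of the 10 genes in the control and TGF-β1 libraries, by the UMIs of the cell (left) and by rebuilt cluster (right). Each bar is 1 library, and no error between mares was computed. The libraries differ most in shallow cells and in cluster 7, and least in the deepest cells and in clusters 1 and 2.

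Genes that work with the 10 were read from lists. Of 42 adhesion partners past 10 CPM, 26 had a log2 ratio above 0 and 16 below, 4 (9.52%) were more than 1.5-fold higher and 2 (4.76%) more than 1.5-fold lower, and the median was 0.10. These shares lie near the 6.19% and 6.48% of all genes past 10 CPM. The highest ratios were those of *EVL* and *VASP*, which promote filament growth at adhesions, and of *NEXN*, an actin-binding protein gene. *EVL* had 82.0 CPM in the control and 202 CPM in the TGF-β1 library (log2 ratio 1.30), *NEXN* 178 and 354 CPM (0.99), and *VASP* 106 and 163 CPM (0.61). The lowest were *CAV1*, encoding the caveolar coat protein, with 101 and 39.0 CPM (-1.37), *FHL1* with 19.0 and 11.3 CPM (-0.76), and *PDLIM4* with 14.7 and 9.80 CPM (-0.58). *PDLIM4*, counted here, passed 10 CPM only in the control, where it was higher. With at least 10 CPM required in both libraries, a minimum chosen after the data were seen, 41 partners remained. Of these, 4 (9.76%) were more than 1.5-fold higher and 2 (4.88%) lower, against 5.54% and 5.34% of 7309 genes.

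The integrins, the receptors that the adhesions hold, had a median log2 ratio of 0.43 over 10 genes past 10 CPM, 6 of them above 0. More than 1.5-fold higher were 3 and more than 1.5-fold lower also 3, each 30% of the list, against 6.19% and 6.48% of all genes. *ITGB3* and *ITGB8*, each counted here, passed 10 CPM only in the library where they were higher. With at least 10 CPM required in both libraries, a minimum chosen after the data were seen, 2 of 8 integrins were more than 1.5-fold higher and 2 lower, against 5.54% and 5.34% of 7309 genes. *ITGB1*, the β chain shared by most of them, had 709 CPM in the control and 915 CPM in the TGF-β1 library. Highest were *ITGB3* with 6.31 and 16.6 CPM (log2 ratio 1.39), *ITGA5*, the fibronectin receptor chain, with 63.0 and 126 CPM (1.00), and *ITGB5* with 69.7 and 122 CPM (0.81). Lowest were *ITGB8* with 15.8 and 4.74 CPM (-1.73), *ITGA8* with 39.7 and 22.2 CPM (-0.84) and *ITGA3* with 37.5 and 21.7 CPM (-0.78).

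The 35 actomyosin partners past 10 CPM had a median log2 ratio of 0.14, with 23 above 0, 1 (2.86%) more than 1.5-fold higher and 2 (5.71%) more than 1.5-fold lower, shares below those of all genes. The 1 was *TPM1*, another tropomyosin, with 2581 CPM in the control and 6167 CPM in the TGF-β1 library (1.26), and *TMSB4X* with 7291 and 10899 CPM (0.58) and *CALD1* with 3338 and 4553 CPM (0.45) came next. The lowest were *MYL12B*, a myosin light chain gene whose near-identical paralog *MYL12A* may share its reads, with 143 and 69.4 CPM (-1.04), *SYNPO2* with 102 and 49.9 CPM (-1.03) and *LIMA1* with 169 and 133 CPM (-0.35). The smooth muscle contractile genes had a median of 0.61 over 9 genes, 5 of them (55.6%, against 6.19% of all genes) more than 1.5-fold higher and 1 (11.1%, against 6.48%) more than 1.5-fold lower. Among the 5, *MYOCD* passed 10 CPM only in the TGF-β1 library. Of the 8 genes with at least 10 CPM in both libraries, 4 were more than 1.5-fold higher and 1 lower. Of all 7309 such genes, 5.54% were higher and 5.34% lower by as much. The median of the 8 was 0.50. *ACTG2*, close in sequence to other actin genes that may share its reads, had 349 CPM in the control and 965 CPM in the TGF-β1 library (1.47), *CNN1* 193 and 453 CPM (1.23), *MYOCD* 8.13 and 12.8 CPM (0.65), *LMOD1* 62.6 and 66.4 CPM (0.08), *DES* 646 and 569 CPM (-0.18) and *MYH11* 42.9 and 25.3 CPM (-0.76).

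Over cells, the summed thinned level of the 10 genes followed these lists to unequal degrees. The level of a list was the sum of its UMIs, so its most abundant genes weighed most. In the control, *ITGB1* held 709 of the 1142 CPM of the integrins. *TAGLN* held 4603 of the 9543 CPM of the smooth muscle contractile genes there. For adhesion partners r was 0.71 in the control and 0.64 in the TGF-β1 library, and for integrins 0.56 and 0.51. For smooth muscle contractile genes it was 0.64 and 0.29, for actomyosin partners 0.56 and 0.18, and for pericyte and smooth muscle genes 0.51 and 0.34. Each of these values was lower in the TGF-β1 library, by the most for the actomyosin partners and the contractile genes. For single genes past 50 CPM, the median r was 0.24 and 0.12 over 29 adhesion partners, 0.16 and 0.17 over 4 integrins, 0.29 and 0.14 over 33 actomyosin partners, and 0.43 and 0.25 over 6 contractile genes. Differences between the lists were not tested. For the fibroblast list r was 0.17 and 0.24, and for the mitochondrial share of UMIs -0.04 and -0.11.

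Among 2864 other genes with a symbol and a mean of 50 CPM or more, r with the summed level of the 10 genes had a median of 0.03 in the control and 0.02 in the TGF-β1 library. The 10 with the highest r in the library where it was lower were *PRUNE2* (0.57 in the control and 0.55 in the TGF-β1 library), *ITGB1* (0.58 and 0.51), *COL12A1* (0.49 and 0.56), *CALD1* (0.63 and 0.47), *LTBP1* (0.47 and 0.47), *VCAN* (0.53 and 0.44), *C1QTNF3* (0.59 and 0.43), *STK38L* (0.43 and 0.43), *COL4A1* (0.42 and 0.43) and *ANO6* (0.42 and 0.42). They include the integrin β1 chain, matrix genes and caldesmon. Of these 10, 9 had a log2 ratio above 0 and 5 were more than 1.5-fold higher, against 56.5% and 7.09% of the 2864 genes. *COL12A1* had 374 CPM in the control and 1067 CPM in the TGF-β1 library, *LTBP1* 134 and 353 CPM, *PRUNE2* 346 and 353 CPM, and *ANO6*, the only one lower, 395 and 276 CPM. Among those farthest in the other direction were *BAX* (-0.47 in the control and -0.35 in the TGF-β1 library), *RPL18* (-0.38 and -0.43) and *FAU* (-0.37 and -0.40).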

How the data were processed

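The authors deposited whole UMI counts for every gene and barcode, from Cell Ranger (7.1.0 in the methods, 8.0.1 in the file headers) with EquCab3.0 and Ensembl gene models, before the study's cell filters. Doublets were not removed, because the study called them from reads. UMIs of kept cells were summed per library, without a pseudocount, with numpy 2.4.6, pandas 2.3.3 and scipy 1.17.1 (Python 3.11.15), and plotted with matplotlib 3.10.9. Clusters were rebuilt in Seurat 5.3.0 under R 4.3.3 from 2000 variable genes, integrated by canonical correlation in 30 dimensions at resolution 0.5, and not matched to those of the study. Ratios and correlations were tested on simulated data. The 10 genes and the lists were chosen with earlier results of these data known. Named from each list are the 3 highest and 3 lowest ratios past 10 CPM, and any further gene was picked with its value in view. *PDLIM7*, *ITGAV*, *TPM3*, *PFN1*, *MYH1*, *MKI67*, *KRT18* and *KRT19* were not found by symbol, and *CD14* stood at more than 1 row and was not used. Some genes and 1 list that these rules name are not reported here. No sequence of the genes was used.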

Additional observations from a re-analysis of the deposited data

How the results depend on the processing

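No paired analysis was possible because each group was 1 library and the files read assign no cell to a mare. For the same reason no replicate was left out. The summed log2 ratio of 0.15 was 0.15 with all deposited barcodes, 0.14 with median-of-ratios size factors, 0.15 with cluster shares standardised, 0.17 without cells above the 98th percentile of UMIs and 0.19 as a mean of per-cell CPM. The median of 0.11 was 0.13 as a mean of per-cell CPM. Chosen after the data were seen, cells of 35000 to 60000 UMIs gave a summed log2 ratio of 0.27 and a median of 0.19. In them 2 genes were more than 1.5-fold higher in place of 0, against 8.06% of all genes. Their *VCL* log2 ratio was 0.10 in place of -0.02. Of their TGF-β1 cells, 0.866% in place of 1.48% lay below the control 10th percentile. Another thinning seed gave 2.02% for that share, with the percentile at 32 in place of 31 UMIs and 9.70% in place of 9.24% of control cells below it. The mean pairwise correlations of 0.24 and 0.18 were 0.35 and 0.25 in unthinned counts, 0.20 and 0.14 within rebuilt clusters, and 0.43 and 0.37 with counting noise taken off. In each of these settings the control library had the higher mean. The background share above 1.5-fold was 7.64% at a minimum of 1 CPM and 10.96% with more than 3 UMIs in both libraries, and 5.54% with at least 10 CPM in both, chosen after the data were seen. The cause of these shifts was not tested. Of 100 log2 ratios of single genes under alternatives, 77 stayed within their counting interval, 22 moved beyond it with the same sign, and 1, that of *VCL*, moved beyond it with another sign. Among the 77, *MYH9*, close to 0, took the other sign 5 times. These 100 leave out the shallow and deep cells, where the summed log2 ratio was 0.44 and 0.01. *FLNA* was at 0.16 in the shallow cells, and in the deep cells *TPM4* was at -0.15, *MYH9* at -0.13 and *TLN1* at -0.03, each of the other sign than over all cells. At under 1 UMI of *PXN* per thinned cell, its spread and correlations could not be read.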

Other observations

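Barcodes that did not pass the cell filters also held UMIs of these genes. The 519 control barcodes left out had a median of 3728 UMIs and a summed level of 4145 CPM, and the 611 TGF-β1 barcodes had a median of 6107 UMIs and 3858 CPM. *FLNA* had 929 CPM in those of the control and 677 CPM in those of the TGF-β1 library, above the 382 and 354 CPM of the kept cells, while *TPM4* had 508 and 458 CPM, below the 804 and 901 CPM of the kept cells. These barcodes are few in UMIs, with 3785520 and 4458807 in all.

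A list of stress genes, 8 of them immediate early genes and 2, *HSPA1A* and *DNAJB1*, of heat-shock chaperones, was mostly lower in the TGF-β1 library. Of these 10, 9 had a log2 ratio below 0, with an interval that spans 0 for *DNAJB1*, and 7, all immediate early genes, were more than 1.5-fold lower, against 6.48% of all genes past 10 CPM. The median was -0.92. *FOS* had 194 CPM in the control and 64.3 CPM in the TGF-β1 library, and *IER3*, the most abundant and the exception, 632 and 879 CPM. Over cells, the summed level of the list had r of -0.05 in the control and -0.06 in the TGF-β1 library with that of the 10 adhesion and actomyosin genes. The 11 cycling markers found summed to 58.6 CPM in the control and 33.7 CPM in the TGF-β1 library, with r of 0.02 and 0.01.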
